A study of Homo sapiens with 4 samples.

Results

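Aldo-keto reductases were read from 4 one-colour Agilent arrays of Hep3B cells, a human hepatocellular carcinoma line. The group was set as 10 genes of the AKR1 and AKR7 families: AKR1A1, AKR1B1, AKR1B10, AKR1B15, AKR1C1, AKR1C2, AKR1C3, AKR1C4, AKR1D1 and AKR7A2. A probe was taken as a member when the gene name printed for it in the array files was 1 of these 10. This gave 12 probes for 9 of the 10 genes, out of 42405 probes and 34805 gene names on the array. No probe carried the name AKR1C2.

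One array held RNA of cells that received the mock hairpin plasmid shR-MOCK, and 1 array each held RNA of cells that received a plasmid expressing a hairpin against UNC50 (shR-467, shR-554 or shR-749). The study's methods describe pLKO.1 as the backbone of shR-MOCK, shR-554 and shR-749. They do not describe shR-467, which the labels name by its number. The study gives values of shR-467, beside those of shR-554 and shR-749, for cells with UNC50 knocked down. The cells were purified after transfection, with puromycin where the methods describe it, and each array stands for 1 purified pool of cells. The 3 hairpins were treated as replicates of UNC50 knockdown. The spread between them therefore holds the difference between hairpins as well as between cultures, and the mock, with 1 array, has no spread of its own. The question of the comparison was which transcripts change when UNC50, a membrane protein of the Golgi apparatus, is depleted from hepatoma cells.

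Aldo-keto reductases are soluble enzymes that use NADPH to reduce aldehydes and ketones to alcohols. In liver they clear reactive aldehydes from sugars, lipids and drugs, and several reduce steroids, bile acid precursors, prostaglandins or retinal. AKR1B10 is low in normal liver and is known as a gene that hepatocellular carcinomas often express strongly. AKR1B10 and some AKR1C genes are also known targets of the antioxidant transcription factor NRF2. AKR1B10 was 1 of the genes the study selected on these same arrays, so its direction here is no independent evidence. The study also reports real-time PCR of AKR1B10, and of the gastrin gene GAST named below, in cells with UNC50 knocked down or overexpressed. It states that the PCR bore out the arrays, and those measurements are not used here.

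The 60-base probes are shown first, because paralogs of this family share sequence and the probe decides which transcripts a signal can hold. For both AKR1B10 probes the opening 30 bases are given. The AKR1B15 probe follows, whose annotation also lists an AKR1B10 transcript.
AKR1B10 A_24_P129341: atcctctcatttggaagactatcccttcga
AKR1B10 A_23_P93641: atcacagtgaacttagtcctgttatagacg
AKR1B15 A_33_P3380992: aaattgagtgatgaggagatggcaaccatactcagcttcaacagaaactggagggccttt
The array annotation (hg19) put the first AKR1B10 probe on chromosome 7 from 134225799 to 134225858, the second from 134225939 to 134225998, and the AKR1B15 probe from 134262468 to 134262527 on the same chromosome. An exon annotation of that build was not used here.

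The AKR1B1 probe and the AKR1C1 probe at the start of the coding sequence are shown for their annotation. The capitals in the AKR1C1 probe mark its start codon.
AKR1B1 A_23_P258190: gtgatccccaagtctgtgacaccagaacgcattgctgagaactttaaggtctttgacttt
AKR1C1 A_24_P152968: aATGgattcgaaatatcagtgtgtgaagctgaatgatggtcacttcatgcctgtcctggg
AKR1B1 lies on chromosome 7, but the array annotation placed its probe on chromosome 3, from 74185878 to 74185937. The RefSeq gene table lists AKR1B1P2, a pseudogene, on that chromosome, and signal from the gene and from such a copy cannot be told apart. The AKR1C1 probe was placed on chromosome 10 from 5005636 to 5005695. A second AKR1C1 probe, A_23_P257971, was placed from 5032153 to 5032212 on the reverse strand. Both AKR1C1 probes also list transcripts of AKR1C2, and what is given below for AKR1C1 can therefore hold signal of both genes. In the promoter windows below, AKR1C1 is on the forward strand and AKR1C2 on the reverse strand, which is the strand of A_23_P257971. The gene-level value of AKR1C1 comes from that probe, so it may be largely or wholly that of AKR1C2.

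Both AKR1C4 probes are shown because they overlap. The capitals mark the 29 bases that they share, the longest run shared by any 2 of the 12 probes. The next longest was 8 bases.
AKR1C4 A_23_P149926: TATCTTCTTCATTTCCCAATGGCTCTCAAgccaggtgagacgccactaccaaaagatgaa
AKR1C4 A_33_P3272291: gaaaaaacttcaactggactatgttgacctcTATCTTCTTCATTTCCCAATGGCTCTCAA
The second was placed on chromosome 10 from 5246396 to 5246455, and the first carried no position. The other probes were 1 each for AKR1A1 (chromosome 1, 46032273 to 46032332), AKR1C3 (chromosome 10, 5147789 to 5147848), AKR1D1 (chromosome 7, 137802295 to 137802354) and AKR7A2 (chromosome 1, 19630593 to 19630652 on the reverse strand). In all, 3 of the 12 probes list transcripts of 2 members, namely the AKR1B15 probe and both AKR1C1 probes.

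Between 67.6% and 73.6% of the 58717 spots other than controls were well above background on an array, and no spot was saturated. The 75th percentile of the signal, to which each array was scaled, was 1120 units on the mock array, and 978, 1390 and 1130 units on those of the hairpins 467, 554 and 749. UNC50 itself served as the check of the labels, with 5010 units in the mock and 1050 with shR-467, then 853 with shR-554, and 947 with shR-749. Relative to the mock and scaled, this was 24.0%, 13.7% and 18.7%, so UNC50 was lowest with shR-554 and highest, among the hairpins, with shR-467. All 13 hepatocyte and hepatoma markers were well above background on every array, with summed signals of 700740.4 units in the mock and 825048 to 953493 with the hairpins. Of these 13 markers 5 were higher on average by 1.5-fold, beside 2.28% of all genes, and 3 with every hairpin, beside 0.537%. The fibroblast markers COL1A1 and COL3A1 and the endothelial marker KDR did not pass the filter on dim probes, while summed signals were 202 to 324 units for the 5 fibroblast markers, 266 to 355 for the 4 endothelial and 1929 to 2945 for the 4 leukocyte markers, all of the last group being well above background on each array. All these sums are before scaling, and as the 75th percentiles differed they are not compared between arrays. The part of these markers in the results below was not tested. Each array holds RNA of a whole culture, in which a lower level in every cell and fewer cells with the transcript cannot be told apart.

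AKR1B10, which reduces retinal and other aldehydes, had the lowest mean of the family relative to the mock among probes well above background on each array. The same held with shR-467 and with shR-554, whereas with shR-749 AKR1C4 was lower. Its probe A_24_P129341 gave 354 units in the mock, 43.2 with shR-467 and 60.4 with shR-554, and 202 with shR-749. The second probe, A_23_P93641, gave 348, 39.1, 53.3 and 196 units in the same order. Both probes were highest in the mock, intermediate with shR-749 and lowest with shR-467 and shR-554, and no hairpin array reached the mock. After scaling, the first probe stood at 14.0% of the mock with shR-467 and 13.7% with shR-554, and 56.6% with shR-749, and the second at 12.9%, 12.3% and 55.9%. The mean log2 differences were -2.17 ± 1.17 and -2.27 ± 1.24 (SD, n = 3 hairpins). The signals of the first probe with shR-467 and shR-554 lay only 1.69 and 2.13 times above the lowest signal well above background on those arrays.

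**Figure D1:**
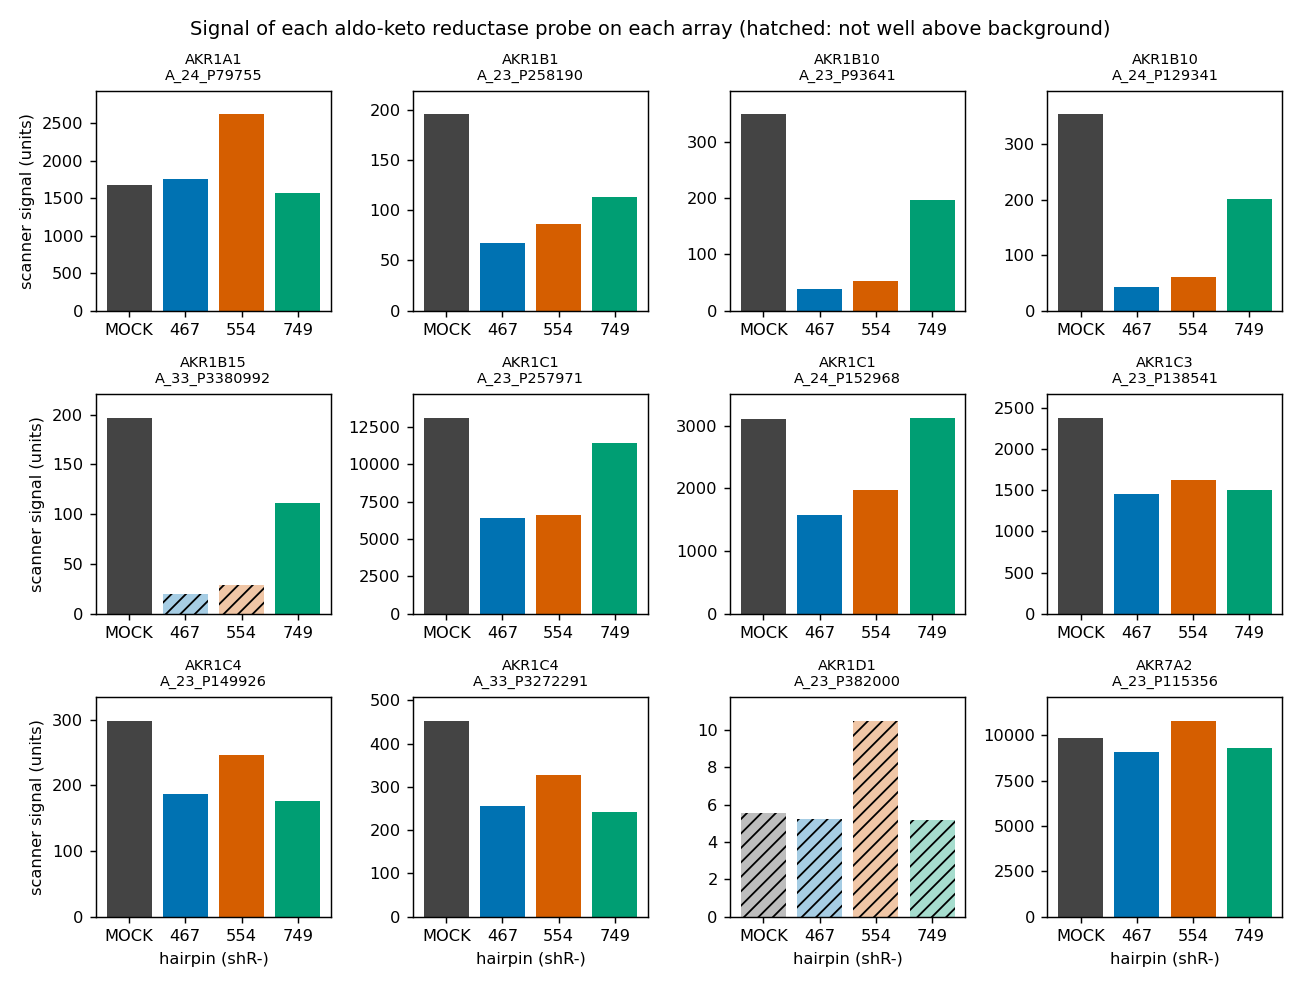
Scanner signal in units (vertical axes, each from 0, a scale of its own per panel) of the 12 aldo-keto reductase probes on the mock array and those of the hairpins 467, 554 and 749, before scaling between arrays, with bars for the mean over the spots of a probe on the log scale and hatching where the probe was not well above background. Both AKR1B10 panels and the AKR1B15 panel show the same profile, high in the mock, intermediate with shR-749 and low with shR-467 and shR-554, and heights are not comparable between panels.

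AKR1B15, a close paralog of AKR1B10, gave 197 units in the mock, 20.1 with shR-467 and 28.7 with shR-554, and 111 with shR-749. Its probe was well above background on 2 of the 4 arrays, those of the mock and of shR-749. With shR-749 it stood at 55.8% of the mock. Against the higher of the lowest signal well above background and its own signal, it was at least 6.75-fold lower with shR-467 and at least 8.52-fold lower with shR-554 than in the mock. The mean of its measured log2 differences was -2.34 ± 1.30 (SD, n = 3 hairpins), in which the values with shR-467 and shR-554 were not well above background. The probe passed the filter on dim probes through the mock array alone. Its profile over the hairpins lay at a Euclidean distance of 0.34 on the log2 scale from that of AKR1B10, closer than that of any of the 13363 other genes considered. Since its annotation also lists an AKR1B10 transcript, the AKR1B15 probe is not a separate measurement of a second gene.

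AKR1B1, the aldose reductase that converts glucose to sorbitol, gave 195 units in the mock, 67.5 with shR-467 and 85.8 with shR-554, and 113 with shR-749. The signal was lower than the mock with every hairpin, at 39.6%, 35.4% and 57.6% after scaling. Its mean log2 difference was -1.21 ± 0.37 (SD, n = 3 hairpins). As for AKR1B10, the value with shR-749 was nearest to the mock.

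The AKR1C enzymes reduce steroids and prostaglandins. AKR1C1, which inactivates progesterone, was read together with AKR1C2, which inactivates dihydrotestosterone. Probe A_23_P257971 gave 13142 units in the mock, 6423 with shR-467 and 6589.9 with shR-554, and 11441 with shR-749, which was 56.0%, 40.4% and 86.3% of the mock after scaling. Probe A_24_P152968 gave 3100, 1580, 1970 and 3130 units, or 58.4%, 51.2% and 100.1% of the mock. With shR-467 and shR-554 both probes were lower than in the mock by over 1.5-fold, and with shR-749 neither was. The mean log2 differences were -0.79 ± 0.55 and -0.58 ± 0.51 (SD, n = 3 hairpins), of which the first passed 1.5-fold and the second fell just short of it. Without shR-554 the first fell short as well, at -0.53.

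AKR1C3, which forms testosterone and prostaglandin F, gave 2385 units in the mock, 1459 with shR-467 and 1629.9 with shR-554, and 1510 with shR-749. Scaled to the arrays, these were 70.1%, 55.1% and 62.8% of the mock, and the mean log2 difference was -0.68 ± 0.17 (SD, n = 3 hairpins). AKR1C4, a liver enzyme of bile acid and steroid metabolism, gave 453 units in the mock, 255 with shR-467 and 328 with shR-554, and 241 with shR-749 from probe A_33_P3272291. The other AKR1C4 probe, which shares 29 bases with it, gave 298, 187, 247 and 176 units. Relative to the mock the first was at 64.5%, 58.3% and 52.7% and the second at 71.6%, 66.6% and 58.5%, with means of -0.78 ± 0.14 and -0.61 ± 0.15 on the log2 scale (SD, n = 3 hairpins). Both AKR1C3 and AKR1C4 were lower than the mock on every hairpin array, and unlike AKR1B10 and AKR1C1 they were not nearest to the mock with shR-749. Read from the mean of its 2 probes, AKR1C4 no longer passed 1.5-fold with every hairpin.

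AKR1A1, an aldehyde reductase of many tissues, gave 1679 units in the mock, 1764 with shR-467 and 2619.7 with shR-554, and 1565 with shR-749. The higher signal with shR-554 was 125.7% of the mock once the arrays were scaled, with 120.3% for shR-467 and 92.3% for shR-749, and the mean log2 difference was 0.16 ± 0.24 (SD, n = 3 hairpins). AKR7A2, an aflatoxin aldehyde reductase whose protein serves as a marker of the Golgi apparatus, gave 9852 units in the mock, 9084 with shR-467 and 10796 with shR-554, and 9270.2 with shR-749, each from 10 spots. These were 105.6%, 88.3% and 93.3% of the mock, with a mean of -0.07 ± 0.13 (SD, n = 3 hairpins). For both genes the mock lay within the range of the hairpins. AKR1D1, the steroid reductase of bile acid synthesis, stayed at background on all 4 arrays, at 5.54, 5.21, 10.5 and 5.20 units, and no fold is given for it.

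**Figure D2:**
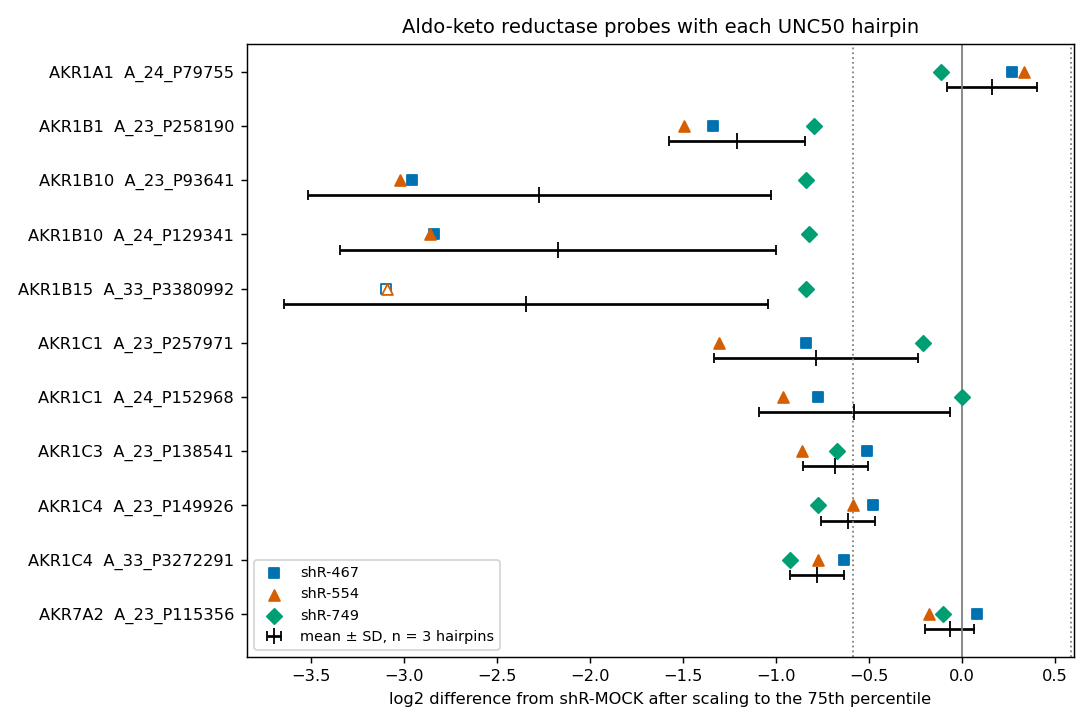
Log2 difference from shR-MOCK (horizontal axis, after scaling each array to its 75th percentile) of the 11 probes that passed the filter on dim probes, with a point for each hairpin (open where not well above background), a black bar for the mean ± SD of 3 hairpins, and dotted lines at 1.5-fold. The AKR1B10 and AKR1B15 points for shR-467 and shR-554 lie near -3 and those for shR-749 near -0.8, whereas the AKR1A1 and AKR7A2 points lie around 0.

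Repeat spots of the AKR1B1 probe and of AKR1B10 probe A_23_P93641 differed little beside the differences of these probes from the mock. The SD between the spots of a probe on an array had a median of 0.055 on the log2 scale over 28 pairs of probe and array. Its highest value was 0.29, for AKR1C4 probe A_23_P149926 with shR-467, beside a log2 difference of -0.48. Probes of 1 spot, such as AKR1B10 probe A_24_P129341, have no such SD. Probes of the same gene differed in their log2 difference from the mock by at most 0.16 for AKR1B10, 0.34 for AKR1C1 and 0.19 for AKR1C4. These figures describe the array measurement and hold nothing of the spread between cultures.

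Of the 10 members, 8 were kept after the filter on dim probes, among 25148 genes in all. AKR1D1 was not read at gene level, and AKR1C2 only through the probe named AKR1C1. Each gene was read from its brightest kept probe. On average over the hairpins 6 of these 8 were lower by at least 1.5-fold (AKR1B1, AKR1B10, AKR1B15, AKR1C1, AKR1C3 and AKR1C4), beside 7.69% of all genes, and 0 of 8 were higher, beside 2.28%. With every hairpin 4 of 8 were lower by at least 1.5-fold (AKR1B1, AKR1B10, AKR1B15 and AKR1C4), beside 1.23% of all genes, and 0 of 8 higher, beside 0.537%. When a gene had to be well above background on each of the 4 arrays, AKR1B15 left the count, and 5 of 7 were lower on average, beside 2.93% of 21497 genes, and 3 of 7 with every hairpin, beside 0.474%. At 2-fold in place of 1.5-fold 3 of 8 were lower on average, beside 2.28% of all genes, and 0 of 8 with every hairpin, beside 0.394%. After normexp correction with an offset of 50 and quantile normalization together, 1 gene, AKR1B10, was lower by 1.5-fold with every hairpin, beside 0.318% of all genes, and the same 6 were lower on average, beside 1.09%. Over all genes, 1935 were lower and 574 higher on average, against 274 and 261 after normexp and quantile normalization and 925 and 615 where dim signals were set to the lowest one that counted as above background. The 8 values are not 8 separate measurements, as the AKR1B15 probe also lists an AKR1B10 transcript. That probe was kept through the mock array alone, where it is high, and AKR1B10 was selected by the study on these arrays. Neither gene adds support to the counts above.

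Taken hairpin by hairpin, 5 of 8 were lower by at least 1.5-fold with shR-467, 6 of 8 with shR-554 and 5 of 8 with shR-749, beside 6.78%, 16.0% and 10.4% of all genes. None of the 8 was higher by as much with any hairpin, beside 7.29%, 4.41% and 5.40% of all genes. AKR1C3 was missing from the count with shR-467 and AKR1C1 from that with shR-749. AKR1B15 is in the counts with shR-467 and shR-554 on signals that were not well above background. Its probe was kept through the mock array alone and also lists an AKR1B10 transcript, so it adds no support to these counts or to the medians that follow. AKR1B10, selected by the study on these arrays, adds no independent support to them either. The median log2 difference of the 8 genes was -0.74 with shR-467 and -1.08 with shR-554, and -0.73 with shR-749, and the median of all genes 0.03, -0.04 and -0.06. The 3 comparisons share the mock array, so an error of that array would enter all of them.

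**Figure D3:**
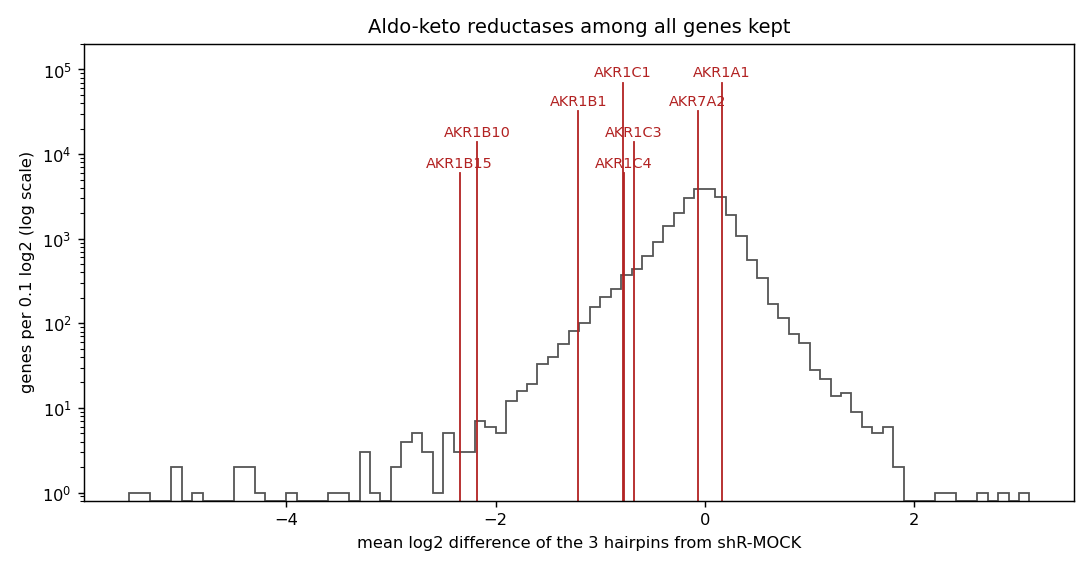
Number of genes in steps of 0.1 of the mean log2 difference of the 3 hairpins from shR-MOCK (outline, vertical axis on a log scale, 25148 genes), with a red line at the value of each of the 8 aldo-keto reductases kept. AKR1B15 and AKR1B10 lie in the sparse lower tail at -2.34 and -2.17, and AKR7A2 and AKR1A1 near the centre at -0.07 and 0.16.

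Ordered by the mean, AKR1B10 was the gene at place 46 from the lowest of 25148 and AKR1B1 at 312. No place is given for AKR1B15, since its signals with shR-467 and shR-554 were not well above background. AKR1C1, AKR1C4 and AKR1C3 followed at 1070, 1099 and 1475. With shR-749 alone AKR1B10 was at place 1410, against 25 with shR-467 and 53 with shR-554. The log2 difference with shR-749 minus the mean of those with the other hairpins was 2.03 for AKR1B10, and 81 genes had a higher one, while it was 0.86 for AKR1C1, 0.62 for AKR1B1, 0.01 for AKR1C3 and -0.22 for AKR1C4, beside a median of -0.04 over all genes. AKR1B10 differed least from the mock with shR-749, and UNC50 was highest among the hairpins with shR-467. Any link between the levels of these genes was not tested. With 1 array a hairpin, differences between hairpins have no test.

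Differences from the mock were tested with limma (Benjamini-Hochberg adjustment over 30274 probes), a fit that lends the single mock array the spread of the hairpins. At an adjusted p under 0.05 limma called 0.00% of all probes and none of the 11 member probes, each with an adjusted p of 0.9998. Without adjustment 451 probes, or 1.49%, had a limma p under 0.05, and 6 of the 11 member probes did (AKR1B1, both of AKR1B10, AKR1B15, AKR1C3 and AKR1C4 probe A_33_P3272291). The AKR1B15 probe is in that count only through the mock array, where it is high, and with values that were not well above background for shR-467 and shR-554, so its p supports nothing. The 95% interval of the mean log2 difference was -4.05 to -0.30 for AKR1B10 probe A_24_P129341, -2.12 to -0.30 for AKR1B1, -1.22 to -0.14 for AKR1C3 and -1.69 to 0.12 for AKR1C1 probe A_23_P257971. For AKR7A2 it was -0.51 to 0.37 and for AKR1A1 -0.43 to 0.75. An exact two-sided permutation test of 1 array against 3 cannot go below 0.25.

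The mean of AKR1B10 changed most when background correction, offset and normalization were replaced together and when shR-749 was left out. After normexp correction with an offset of 50 and quantile normalization, the means of its probes were -1.46 and -1.51, that of AKR1B15 was -1.23 and that of AKR1B1 was -0.75. Without shR-749 the AKR1B10 means were -2.85 and -2.99.

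**Figure D4:**
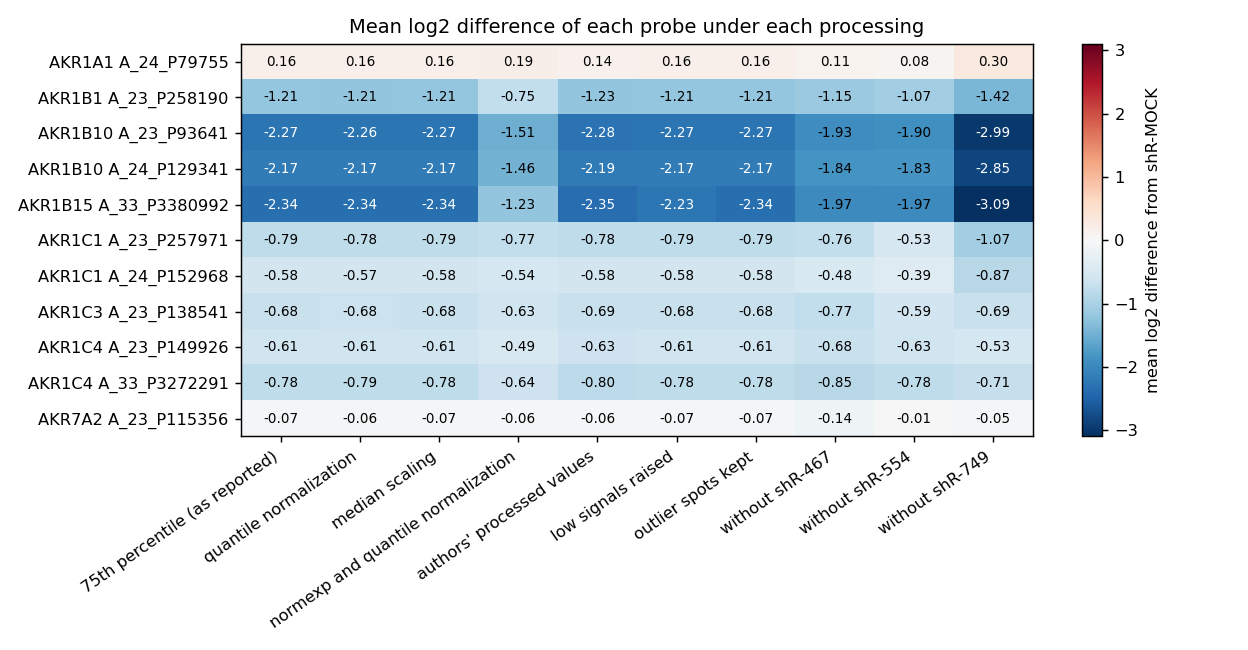
Mean log2 difference from shR-MOCK (number and colour) of the 11 member probes kept (rows) under each way of processing (columns), the last 3 columns leaving out 1 hairpin each. The 10 probes below AKR1A1 are negative in every column and AKR1A1 is positive in every column, while the normexp column gives values nearer 0 for AKR1B1, AKR1B10 and AKR1B15.

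Other enzymes of related chemistry were read from lists of genes. In the rest of the aldo-keto reductase superfamily, 4 of 8 listed genes were kept, with a median log2 difference of -0.11, and 1 was lower on average by 1.5-fold. That gene was KCNAB3, a potassium channel subunit, at -0.73 ± 0.62 (SD, n = 3 hairpins). Among 15 other carbonyl-reducing and polyol enzymes the median was 0.07, and DHRS2 and ADH1C were lower on average. DHRS2, a dehydrogenase/reductase of dicarbonyls, had 686 units in the mock, 146 with shR-467 and 252 with shR-554, and 325 with shR-749. It was lower than the mock by over 1.5-fold with each hairpin, with a mean log2 difference of -1.63 ± 0.49 (SD, n = 3 hairpins). DHRS2 was the one gene of these lists to pass with every hairpin while well above background on all arrays. Of all genes well above background on every array, 0.474% were lower with every hairpin. ADH1C, an alcohol dehydrogenase, was at -0.60 ± 0.57. None of 17 aldehyde dehydrogenases, which oxidise aldehydes to acids, passed 1.5-fold on average in either direction, and their median was 0.06. Over all genes 7.69% were lower and 2.28% higher on average by 1.5-fold, and no list count is read as differing from these shares.

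In retinoid metabolism, which uses the retinal that AKR1B10 reduces, 1 of 20 genes was lower on average (RDH8, a retinol dehydrogenase, well above background on 1 array) and 1 higher (RBP2, a retinol-binding protein, at 0.93 ± 0.82), with a median of 0.10. In steroid and bile acid metabolism 2 of 26 were lower (HSD3B2 at -0.76 ± 0.56 and SULT1E1 at -0.72 ± 0.86) and 2 higher (SULT2A1 at 1.22 ± 0.74 and HSD17B14 at 0.71 ± 0.83), with a median of 0.01. The list of NRF2 with its partners and targets had 30 of 31 genes kept, and NFE2L2, the gene of NRF2 itself, was the one not kept and is not read here. Of the 30, 1 was lower, the glutathione peroxidase GPX2 at -0.87 ± 0.70, and 1 higher, the heme oxygenase HMOX1 at 0.77 ± 0.81, and the median was -0.13. Errors here are SD over 3 hairpins, limma called none of these genes, and, except for DHRS2, they were named after their values were seen. Beside these medians stands -0.03 for all genes and -0.78 for the 8 aldo-keto reductases. The counts stand beside 7.69% of all genes lower and 2.28% higher on average, and are not read as differing from those shares.

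**Figure D5:**
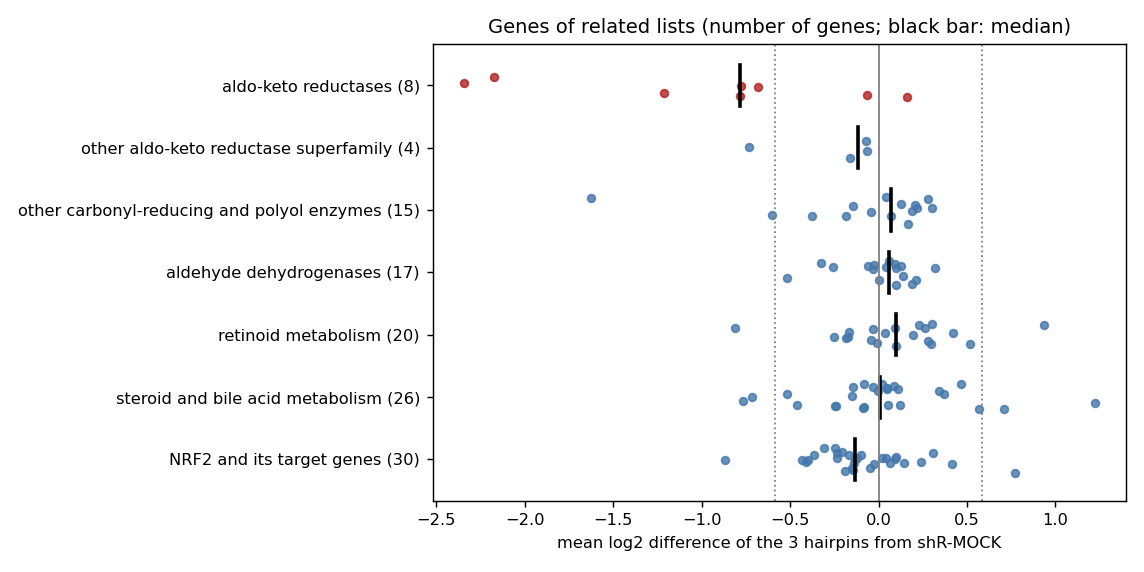
Mean log2 difference of the 3 hairpins from shR-MOCK (horizontal axis) of each gene kept, for the 8 aldo-keto reductases (red) and 6 lists of related genes (blue, number kept in parentheses), with a black bar at the median and dotted lines at 1.5-fold, and a small vertical scatter of the points for display. The medians of the 6 lists lie between -0.13 and 0.10 and that of the aldo-keto reductases at -0.78, a group in which AKR1B10 had been selected on these arrays.

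The 5 genes with the profile over the hairpins closest to AKR1B10, among 13363 with a RefSeq symbol and well above background in the mock, were RNF17, DOK7, CACNG1, GAST and PGA3, at distances of 0.91 to 1.25 on the log2 scale. GAST, which encodes gastrin and was also selected by the study on these arrays, was well above background on all 4 arrays, with 782 units in the mock, 199.7 with shR-467 and 97.4 with shR-554, and 358 with shR-749. The others were dim, with 30.7 to 53.7 units in the mock, and well above background on 1 or 2 arrays. Among the other aldo-keto reductases AKR1B1 was at a distance of 2.03 and 0.292% of the genes considered were closer, and AKR1C1 was at 2.61 with 1.30% closer.

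By position, AKR1B1, AKR1B10 and AKR1B15 are neighbours on chromosome 7, with no other protein-coding gene between them in the RefSeq gene table. On either side, SLC35B4 had a mean log2 difference of 0.14 ± 0.27, BPGM of -0.02 ± 0.03 and CALD1 of 0.33 ± 0.22 (SD, n = 3 hairpins). LRGUK, which lies past SLC35B4, was on the array but did not pass the filter on dim probes. AKR1C1, AKR1C2, AKR1C3 and AKR1C4 lie together on chromosome 10 with AKR1C8 among them. AKR1E2, the gene directly before that cluster, was on the array but did not pass the filter on dim probes. KLF6, which lies past AKR1E2, was at 0.25 ± 0.14. After the cluster, UCN3 was at -0.06 ± 0.69, while TUBAL3, the second coding gene past AKR1C4, was at -0.87 ± 0.43. The neighbours were taken by position, after the values of the members were known.

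Promoter windows of RefSeq (250 bases before to 50 after a start site, GRCh38.p14) were found for 8 of the 10 members, in 11 windows. AKR1B10 and AKR1B15 had none there. The windows of AKR1C1 and AKR1C2 are shown because the arrays could not separate these genes. Their 250 upstream bases share an unbroken run of 245, and the capitals mark the 5 bases of each outside it.
AKR1C1 upstream, chr10:4963165-4963414, forward strand: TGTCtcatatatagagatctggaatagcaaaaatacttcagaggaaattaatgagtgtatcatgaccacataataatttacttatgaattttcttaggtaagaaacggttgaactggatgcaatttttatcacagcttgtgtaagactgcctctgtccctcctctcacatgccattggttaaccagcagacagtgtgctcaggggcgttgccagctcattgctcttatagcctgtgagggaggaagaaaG
AKR1C2 upstream, chr10:5003858-5004107, reverse strand: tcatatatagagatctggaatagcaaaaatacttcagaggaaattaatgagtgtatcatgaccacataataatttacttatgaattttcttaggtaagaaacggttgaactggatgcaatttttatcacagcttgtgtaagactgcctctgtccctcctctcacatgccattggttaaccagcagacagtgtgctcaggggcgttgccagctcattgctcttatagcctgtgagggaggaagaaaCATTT
Over the whole windows their identity was 93.5% in a global alignment, against 73.5% for AKR1C1 and the first AKR1C3 window.

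Letters of 3 motifs were searched on both strands: TGACNNNGC, the core of the antioxidant response element that NRF2 binds, TGANTCA, the AP-1 site, and TATAAA, the TATA box. Of all 35116 promoter windows, 13.3% held the first, 7.71% the second and 11.5% the third. AKR1B10 and AKR1B15 had no window to search. AKR7A2 held 3 matches to the letters of the antioxidant response element core, in capitals below, and its second start site 2 bases away gave the same 3. Whether NRF2 binds there was not tested.
AKR7A2 upstream, chr1:19312147-19312396, reverse strand: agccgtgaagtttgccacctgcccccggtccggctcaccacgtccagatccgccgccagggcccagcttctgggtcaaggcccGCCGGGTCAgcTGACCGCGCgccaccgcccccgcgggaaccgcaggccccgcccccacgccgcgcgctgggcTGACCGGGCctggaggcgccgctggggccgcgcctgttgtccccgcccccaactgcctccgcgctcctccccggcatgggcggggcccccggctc
AKR1C4 held a TATA box, which begins 29 bases before its start site, and one AKR1C3 window held one on the opposite strand. They are shown with the matched letters in capitals.
AKR1C4 upstream, chr10:5196587-5196836, forward strand: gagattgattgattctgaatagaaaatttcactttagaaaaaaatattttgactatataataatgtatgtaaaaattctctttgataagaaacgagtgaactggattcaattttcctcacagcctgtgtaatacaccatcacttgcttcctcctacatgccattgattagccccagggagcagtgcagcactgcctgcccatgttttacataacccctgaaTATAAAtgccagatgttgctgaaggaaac
AKR1C3 upstream, chr10:5048531-5048780, forward strand: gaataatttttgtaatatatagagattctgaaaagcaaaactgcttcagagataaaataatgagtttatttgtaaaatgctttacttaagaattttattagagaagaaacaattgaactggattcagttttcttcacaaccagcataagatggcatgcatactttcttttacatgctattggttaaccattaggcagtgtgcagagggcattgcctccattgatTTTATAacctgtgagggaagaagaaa
The second AKR1C3 window and those of AKR1A1, AKR1B1, AKR1D1, AKR1C1 and AKR1C2 held none of the 3, which says only that these letters are not in these windows.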

How the data were processed

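Hep3B RNA was labelled with Cy3 and hybridised to 4 arrays of 1 slide, read in 1 scan. For each array the authors deposited the intensity of each spot from Agilent Feature Extraction 10.7.1.1 (per the file headers), in which the processed signal is already background-subtracted, and a table of processed log2 values. Each column of that table had a median of 6.38 and differed from quantile-normalized signals computed here by a median of -0.0099 to 0.0074, so its scale and direction are settled and its values are not centred by gene. The software's flags for outlier, saturated and well above background spots carry no unit. No deposited column of per-sample values was left unmapped (0).

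For the main values, the processed signal was divided by its array's 75th percentile and taken as log2, without outlier spots and with a probe's spots averaged. A probe was well above background where no more of its spots failed that mark than passed it, and was kept where so on the mock array or on all 3 hairpin arrays. A gene was read from its brightest kept probe. The 1.5-fold threshold on the average change is that of the study's methods. Differences were tested with limma 3.58.1 in R 4.3.3 (mean-variance trend, Benjamini-Hochberg, 2 residual degrees of freedom, prior 4.88), a step checked on simulated data. Tables and alignments used Python 3.11.15, pandas 2.3.3 and Biopython 1.88. By rule the genes named were all members, UNC50, at most 5 genes of a list past 1.5-fold with every hairpin, and the 5 genes nearest to AKR1B10. List genes past 1.5-fold only on average, and neighbours by position, were named after values were seen. The members and lists were chosen with earlier results of these data known. Protein sequences were not used here, so identity between members was not computed. The p-values rest on the spread between hairpins, that of each probe being drawn towards a trend over all probes fitted. They hold no spread between mock cultures.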

Additional observations from a re-analysis of the deposited data

How the results depend on the processing

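Each probe's mean log2 difference was recomputed with the median as scale, with quantile normalization (alone or after normexp), from the authors' table, with low signals raised or outlier spots kept, and without each hairpin. All 11 probes kept their sign under these 9 alternatives. The SD between hairpins is a wide yardstick for AKR1B10, and AKR1B1 after normexp, at -0.75, lay over 1 SD from its main value. The number of members lower by 1.5-fold with every hairpin was 4, and 1 after normexp, beside 1.23% and 0.318% of all genes. That 1 gene was AKR1B10, which the study had selected on these arrays. Over all genes, the counts lower and higher on average were 1935 and 574, and 274 and 261 after normexp, while low signals raised gave 925 lower. At a 2-fold threshold in place of 1.5-fold, 3 members were lower on average and 0 with every hairpin, beside 2.28% and 0.394% of all genes. limma called 0 probes, 4 after normexp, and 0 to 1 without a hairpin, none of them a member. Without shR-554, AKR1C1 left the members lower on average, which were then 5. Slide or scan as a block could not be fitted, since all arrays shared both, and the mock array could not be left out. No paired analysis was possible because the labels carry no replicate numbers shared by the groups. What limits these values is 1 mock array and, for AKR1B10, AKR1B15 and AKR1B1, signals near background with shR-467 and shR-554. The cause of the change under normexp was not tested.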
